A study of Mus musculus with 26 samples.

Results

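The 14-3-3 transcripts are the mRNAs of *Ywhab* (14-3-3 beta), *Ywhae* (epsilon), *Ywhag* (gamma), *Ywhah* (eta), *Ywhaq* (theta) and *Ywhaz* (zeta), genes whose products bind LRRK2. They were chosen by gene symbol. All 6 of the 6 symbols were listed in each deposited table, 6 of 8576 transcripts for GS LRRK2 TG, 6 of 8576 for GS/DA LRRK2 TG and 6 of 9561 for LRRK2 KO.

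The 14-3-3 proteins are small acidic adaptors that form dimers and hold partner proteins at phosphorylated serine or threonine residues, which changes where a partner is found in the cell or what it can bind. They are among the most abundant soluble proteins of brain. LRRK2, a large kinase and GTPase mutated in familial Parkinson's disease, carries phosphorylated serines ahead of its leucine-rich repeats, and 14-3-3 proteins bind there.

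Ribosome footprints and total RNA were sequenced from mouse caudate putamen, called striatum in the labels, to compare translation between LRRK2 genotypes. GS LRRK2 TG mice carried a transgene of LRRK2 with the G2019S mutation, which raises kinase activity, and GS/DA LRRK2 TG mice carried G2019S together with D1994A, which removes it. Both transgenes came from high-copy lines, were driven by CaMKII-tTA, and are silent under doxycycline, which was fed through the breeding cages and withdrawn after weaning, so that expression follows the CaMKII promoter and starts in young mice. Their controls, labelled non-TG, were littermates according to the study's text. LRRK2 KO mice lack functional LRRK2 in all cells and were compared with WT mice. The strain was labelled C57BL/6 throughout, the age was 3 months in the labels and 3 to 4 months in the study's methods, and each lysate pooled 3 mice of mixed sex in the presence of cycloheximide and was then divided between footprinting and RNA-Seq. In footprinting, RNase digestion leaves the mRNA fragments that ribosomes cover, and TE is the footprinting value divided by the RNA-Seq value of a transcript.

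The labels give 3 footprinting and 3 RNA-Seq samples for non-TG control, 2 and 2 for GS LRRK2 TG, 2 and 2 for GS/DA LRRK2 TG, 3 and 2 for WT, and 3 and 2 for LRRK2 KO. A pair of ventral midbrain samples was not analysed here. The tables hold 1 normalized mean per group and assay, and single libraries could be read back from 10 of the 12 columns of means, with 2 libraries in each. Of GS LRRK2 TG, the control columns could not be resolved. Recovered libraries held 7773499 and 8878800 footprints in coding sequence (CDS) for GS LRRK2 TG, between 9557195 and 22428365 for GS/DA LRRK2 TG with its control and 3032566 to 6364077 for LRRK2 KO with WT. RNA-Seq libraries held 9461216 and 15867780 reads, 12868053 to 15671670 and 3239721 to 11014673 in the same order. Every 14-3-3 transcript had at least 1705 reads in each recovered library. Libraries are called A and B, a control and a genotype library with the same letter being those whose difference from the other library was shared. This pairing is read from the values (Spearman's rho across transcripts GS/DA LRRK2 TG 0.738 in footprinting and 0.975 in RNA-Seq, LRRK2 KO 0.758 and 0.683) and not from the labels. Letters of footprinting and RNA-Seq are not linked, and which libraries came from the same lysate was not inferred. A pair of reads that fits a mean is less certain at high levels. Of 12 footprinting means of members in GS/DA LRRK2 TG and its control, all of 10000 or more, 4 were fitted by only 1 pair of reads. For the others the ratio usual between the libraries decided, and 3 of them kept a second pair. In the LRRK2 KO table every member's mean was fitted by only 1 pair.

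The tissue carried its defining markers. Of 14 symbols for striatal projection neurons 12 were listed, led by *Ppp1r1b* (DARPP-32) with a footprinting mean of 42124 in the non-TG control of GS/DA LRRK2 TG and 9040.0 in WT. The cortical marker *Slc17a7* stood at 833 and 1260.3 in those groups. *Lrrk2*, examined first as a check of the labels, had footprinting values of 690.1 and 400.3 in the WT libraries and of 149.7 and 102.0 in the LRRK2 KO libraries, and RNA-Seq values of 733 and 1278 against 270.0 and 423. Beside GS/DA LRRK2 TG its footprinting values were 1224 and 1445 in control, against 4766 and 7267 in the transgenic libraries. In GS LRRK2 TG they were 7052 and 3320.5, beside a control mean of 2524. *Lrrk2* footprints therefore separated the libraries by label in LRRK2 KO and GS/DA LRRK2 TG. For GS LRRK2 TG only the group means can be compared with the label, since single control libraries are missing there and may overlap with the lower transgenic library. *Lrrk2* RNA-Seq did not separate the transgenic groups, with 560.2 and 5233 in control beside 404 and 5038 in GS/DA LRRK2 TG.

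The 14-3-3 genes lie on 5 chromosomes (mm9, the build of the authors' alignment). *Ywhab* (transcript uc008ntp.1) spans chr2:163820696-163844324 on the plus strand. *Ywhae* (uc007ket.2) spans chr11:75546371-75579347 on the plus strand. *Ywhag* (uc008zzf.2) and *Ywhah* (uc008xag.2) share chromosome 5, at chr5:136384279-136410486 on the minus strand and chr5:33361465-33370615 on the plus strand, far from each other. *Ywhaq* (uc007ndw.1) spans chr12:21395932-21423498 and *Ywhaz* (uc007vmz.2) chr15:36700525-36724302, both on the minus strand, and *Lrrk2* lies on chromosome 15 too, at chr15:91503606-91646551.

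The coding sequences are related but mostly distinguishable. In pairwise alignments, *Ywhag* and *Ywhah* were the most alike, with 78.9% identical bases and a longest shared run of 30 bases. *Ywhab* and *Ywhaz* followed with 75.1%, then *Ywhaq* and *Ywhaz* with 74.1%. *Ywhae* stood apart from all the others, at 61.4% to 63.1%. Of all 28-base words of a CDS, the length of a typical footprint, at most 3.35% (*Ywhag*) occurred in another 14-3-3 transcript with up to 1 mismatch, the number the authors' alignment allowed.

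A stretch of 30 coding bases is given below, in which all 6 transcripts can be aligned without a gap. It was chosen for having the fewest differing positions of all such stretches. It is thus not typical of the whole CDS, where pairs shared 61.4% to 78.9% of bases. Capitals mark the 6 positions at which the transcripts differ from each other, and the other positions are identical in all of them. The sequences are given 5′ to 3′ on the coding strand.
Ywhab: ActggcTgagcaggcTgagcgCtaTgaTga
Ywhae: GctggcAgagcaggcCgagcgAtaCgaCga
Ywhag: GctggcCgagcaggcGgagcgCtaCgaCga
Ywhah: ActggcGgagcaggcGgagcgCtaCgaCga
Ywhaq: GctggcCgagcaggcCgagcgCtaCgaCga
Ywhaz: GctggcCgagcaggcAgagcgAtaTgaTga
The windows lie at chr2:163837379-163837408 for *Ywhab*, chr5:136410215-136410244 for *Ywhag*, chr5:33361752-33361781 for *Ywhah*, chr12:21422891-21422920 for *Ywhaq* and chr15:36720671-36720700 for *Ywhaz*, each within 1 coding exon, while that of *Ywhae* on chromosome 11 spans an exon junction. *Ywhag* and *Ywhaq* differ at only 1 of these positions, which the allowed mismatch could bridge.

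Copies elsewhere in the genome are the larger uncertainty. For *Ywhab* 0.840% and for *Ywhae* 0% of the 28-base words occurred outside the gene with up to 1 mismatch. For *Ywhah* the share was 93.7%, and a pseudogene at chr3:98624961-98625687 alone held 91.7% of its words. For *Ywhaq* the share was 88.5%, spread over 9 loci of which 4 are annotated as pseudogenes, with as much in the copy at chr13:13324425-13325234. For *Ywhaz* it was 97.2%, with a copy at chr3:92493347-92494085 that holds the same share. How reads that map to several places were counted is not given in the sources used here, so the levels of *Ywhah*, *Ywhaq* and *Ywhaz* are uncertain in that respect, while those of *Ywhab*, *Ywhae* and *Ywhag* rest on sequence that is nearly unique.

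All 6 transcripts had high footprinting means. Without correction for length, these ranked between the 98.1 percentile (*Ywhah*, non-TG control beside GS/DA LRRK2 TG) and the 99.9 percentile (*Ywhaz*, GS LRRK2 TG) of their table. In RNA-Seq the ranks were lower for *Ywhab*, between the 88.4 and 90.1 percentiles in the transgenic tables. Levels are compared between genes per kb of CDS, taken as the union of isoforms, and between groups within 1 table, since the tables were normalized separately. In the non-TG control of the GS/DA LRRK2 TG table, the footprinting level of *Ywhaz* was 72275 per kb, that of *Ywhae* 23249, that of *Ywhag* 19283, that of *Ywhab* 16892, that of *Ywhaq* 12537 and that of *Ywhah* 8388. *Ywhaz* was thus the leading 14-3-3 transcript by a wide margin. Across single libraries of that control the level per kb was 74670 and 69881 for *Ywhaz*, 24371 and 22127 for *Ywhae*, and 20931 and 17635 for *Ywhag*. Those of *Ywhab*, 16124 and 17660.2, overlapped with those of *Ywhag*, so that the order of this pair is within the spread of libraries. The libraries of *Ywhaq* (12822 and 12252) and *Ywhah* (8163 and 8613) lay apart from each other.

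The order depends on the length used, above all for *Ywhah*, whose isoforms cover 1266 coding bases together and 741 in the longest. Per kb of the longest isoform, *Ywhah* reached 14330.4 in the same control and passed *Ywhaq*, at 13197. In WT the footprinting level per kb was 18595 for *Ywhaz*, 8019 for *Ywhag*, 7637 for *Ywhae*, 4867 for *Ywhab*, 4361 for *Ywhah* and 3660.2 for *Ywhaq*. *Ywhaz* again led. Per kb of the longest isoform, *Ywhae* (8582) passed *Ywhag* (7986) and *Ywhah* (7451) passed *Ywhab* (4847) in WT. The WT libraries overlapped between *Ywhag* (8183 and 7855) and *Ywhae* (8769 and 6506), and *Ywhah* (5166 and 3557) overlapped with both *Ywhab* (5466 and 4267) and *Ywhaq* (4069 and 3251), which lay apart from each other.

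In the non-TG control of the GS/DA LRRK2 TG table, log2 TE was 1.91 for *Ywhab*, 1.55 for *Ywhaz*, 1.497 for *Ywhag*, 1.15 for *Ywhae*, 0.60 for *Ywhaq* and 0.32 for *Ywhah*. *Ywhab* ranked at the 99.2 percentile of all transcripts in TE, and *Ywhah* at the 64.9 percentile. With RNA-Seq library A or B alone in place of the RNA-Seq mean, log2 TE in this control was 1.59 or 2.32 for *Ywhab*, 1.56 or 1.54 for *Ywhaz* and 1.105 or 2.04 for *Ywhag*. It was 1.07 or 1.24 for *Ywhae*, 1.06 or 0.26 for *Ywhaq* and 0.54 or 0.12 for *Ywhah*. *Ywhab* was highest and *Ywhah* lowest with either library, and the order between them depended on the library. Over all transcripts too these RNA-Seq libraries differed widely, with a robust SD of their log2 ratio of 1.46. The control of the GS LRRK2 TG table, for which the labels list the same non-TG samples, is not taken as a separate observation and ran from 1.64 for *Ywhab* to 0.20 for *Ywhah*. In WT, log2 TE from the group means lay between 0.14 for *Ywhae* and 0.45 for *Ywhaz*, all at or above the 92.6 percentile of that table. These values rest on the RNA-Seq library, being between -0.08 (*Ywhaq*) and -0.03 (*Ywhag*) with WT library A alone and between 0.37 (*Ywhae*) and 1.23 (*Ywhaz*) with WT library B alone. Predicted folding energy of the 5′UTR, deposited by the authors in kcal/mol, spread widely over the members, from -55.1 for *Ywhae* and -63.5 for *Ywhab* through -85.87 for *Ywhag* and -146.8 for *Ywhah* to -186.66 for *Ywhaq* and -212.1 for *Ywhaz*, beside a median of -91.15 over the transcripts of the transgenic tables.

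**Figure D1:**
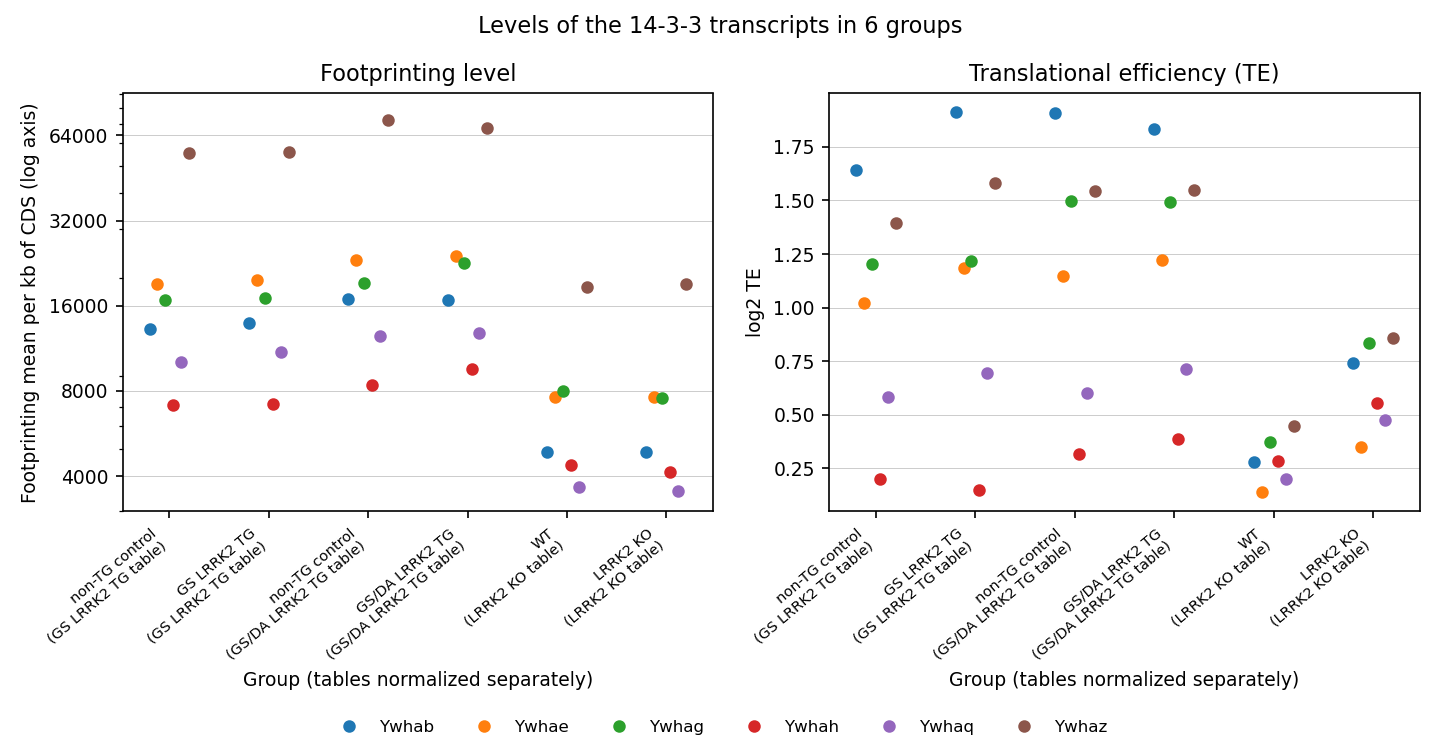
Left, the authors' footprinting mean per kb of CDS (union of isoforms, log axis) of the 6 transcripts in each group, 1 point per transcript; right, their log2 TE. *Ywhaz* has the highest footprinting level in all 6 groups (72275 per kb in the non-TG control beside GS/DA LRRK2 TG), and *Ywhab* the highest TE in the transgenic tables (1.91 in that control); the tables were normalized separately.

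LRRK2 KO against WT asks how the loss of LRRK2 goes with the translation of these transcripts. The mRNA of all 6 members was lower in the LRRK2 KO mean than in the WT mean, while their footprints were nearly equal, so that TE was higher for all 6, under each scaling of the means tried. The median log2 change was -0.36 for RNA-Seq (0.01 over all transcripts of the table), -0.03 for footprinting (0.02) and 0.34 for TE (0.02). Of the 6 members, 5 had an RNA-Seq change of -0.25 or less (13.4% of all transcripts) and 5 a TE difference of 0.25 or more (18.1%), *Ywhae* reaching neither limit. None of these differences passed a test, and they rested on 1 WT library. With bulk tissue, fewer cells of a type and less RNA per cell cannot be told apart.

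*Ywhag*, encoding an isoform rich in neurons whose variants cause childhood epilepsy in humans, had RNA-Seq values of 6067 and 3094 in WT libraries A and B and of 3302 and 2989 in LRRK2 KO libraries A and B. *Ywhaz*, the most abundant, had 14249 and 5814 in WT and 9383 and 6027 in LRRK2 KO. *Ywhab* had 3738 and 2171 in WT and 2257 and 2055 in LRRK2 KO. In each of these, WT library A was the highest of the 4 libraries, and WT library B lay between the LRRK2 KO libraries or close to them. The RNA-Seq values of *Ywhah* were 5654 and 3405 in WT and 3958 and 3181 in LRRK2 KO, and those of *Ywhaq* 3705 and 2411 in WT and 2645 and 2245 in LRRK2 KO. *Ywhae*, whose human counterpart lies in the interval deleted in Miller-Dieker syndrome, had 6866 and 5115 in WT and 5286 and 5007 in LRRK2 KO. WT and LRRK2 KO libraries overlapped for all 6 transcripts, while both LRRK2 KO libraries were above both WT libraries in 7.04% of all transcripts and below them in 7.04%.

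The RNA-Seq log2 changes between the means were -0.54 for *Ywhag*, -0.45 for *Ywhab*, -0.38 for *Ywhaz*, -0.34 for *Ywhah*, -0.32 for *Ywhaq* and -0.22 for *Ywhae*. On the log2 scale of single libraries (normalized reads plus a pseudocount of 10, n = 2 libraries a group), limma gave -0.46 ± 0.38 (SE) for *Ywhag*, -0.40 ± 0.34 for *Ywhab* and -0.28 ± 0.49 for *Ywhaz*. After Benjamini-Hochberg adjustment over the 9535 transcripts tested, limma gave *Ywhag* an adjusted p of 1.00 and called 0 of the 6 members and 0 of all transcripts (0%), with 7 of all transcripts (0.0734%) and 0 members at an unadjusted p under 0.05. With the library batch as a block, the unadjusted p of *Ywhag* in limma was 0.0362 and its Benjamini-Hochberg adjusted p 0.996. In that fit 11 of all transcripts (0.115%) and 0 members were called. There 398 (4.17%) and 1 member, *Ywhag*, had an unadjusted p under 0.05. The SE was 0.22 for each of the 6 members, so this p does not measure the spread of *Ywhag* alone. The batches were also matched by these same values, which can lower p. With the batches crossed (letters of the LRRK2 KO libraries swapped), limma gave *Ywhag* an unadjusted p of 0.363.

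Between the A libraries the RNA-Seq change was -0.88 for *Ywhag*, -0.73 for *Ywhab*, -0.60 for *Ywhaz*, -0.51 for *Ywhah*, -0.49 for *Ywhaq* and -0.38 for *Ywhae*, with a median of -0.56 beside 0.00 over all transcripts. Between the B libraries it ranged from -0.10 for *Ywhaq* to 0.05 for *Ywhaz*, with a median of -0.06. Without WT library A the median RNA-Seq change of the members was 0.02, and their median TE difference was -0.09. The lower mRNA of the group means was thus mostly that of 1 batch, with 6 of the 6 members below 0 between the A libraries and 5 of the 6, by at most 0.10, between the B libraries. TE within a batch was not computed, since the letters of both assays are not linked.

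WT library A was the shallowest RNA-Seq library, with 3239721 reads. The 14-3-3 transcripts made up 0.644% of its reads, against 0.382% of WT library B, 0.437% of LRRK2 KO library A and 0.376% of LRRK2 KO library B, and the 100 most abundant transcripts 19.3%, 16.5%, 17.2% and 15.4%. Summed RNA-Seq values of the striatal markers were 63153 and 47065 in the WT libraries and 68775 and 49534 in the LRRK2 KO libraries. Those of the cortical markers (4 of 4 listed, led by *Slc17a7*) were 4558 and 2457 in WT and 3960.2 and 1906 in LRRK2 KO, and those of the astrocyte markers (5 of 5, led by *Slc1a3*) 2997 and 2615 in WT and 2676 and 2381 in LRRK2 KO. Both marker sums were, like the members, highest in WT library A. Other marker sums were not, with 673 and 286 in WT and 866 and 277 in LRRK2 KO for microglia (3 of 3 listed, led by *Csf1r*) and 143 and 282 against 173 and 34.8 for *Ttr*. The sums of the 3 listed blood genes of 4, led by *Hba-a2*, were 9093 and 6039 in WT and 6883 and 6047 in LRRK2 KO. The part of depth and makeup in the mRNA values of the members was not tested.

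Footprints of the members differed little between LRRK2 KO and WT. *Ywhaz* had footprinting values of 14942 and 12393 in WT and 13647 and 14334 in LRRK2 KO. *Ywhag* had 6063 and 5820.3 in WT and 6384 and 4844 in LRRK2 KO. *Ywhah* had 6540.4 and 4503 in WT and 5988 and 4489.6 in LRRK2 KO, and the libraries overlapped for these and for the other 3 members, where 6.22% of all transcripts had both LRRK2 KO libraries higher and 6.4% both lower. Log2 changes of the footprinting means lay between -0.08 for *Ywhag* and 0.03 for *Ywhaz*, on both sides of 0, and 0 members reached 0.25 or -0.25 (8.39% and 7.01% of all transcripts). The sign for *Ywhab* (0.01) turned under another scaling of the columns. Within batches the footprinting median was -0.12 for the A libraries and 0.12 for the B libraries. For footprinting limma called 0 members and 0 of 9537 transcripts (0%). At an unadjusted p under 0.05 were 15 of all transcripts (0.157%) and 0 members. With the batch block these were 303 (3.18%) and 0 members. In that fit the SE was 0.19 for each of the 6 members, so it does not measure the spread of a single member.

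The TE differences in LRRK2 KO were 0.46 for *Ywhag*, 0.46 for *Ywhab*, 0.41 for *Ywhaz*, 0.28 for *Ywhaq*, 0.27 for *Ywhah* and 0.21 for *Ywhae*. The interaction of genotype and assay in limma gave 0.37 ± 0.48 (SE) for *Ywhag* and 0.42 ± 0.43 for *Ywhab*, with n = 2 libraries per group and assay. It took the libraries of both assays as independent, although lysates were divided between the assays and libraries of both can share a lysate. It called 0 of the 6 and 0 of 9533 transcripts (0%), with 4 of all transcripts (0.042%) and 0 members at an unadjusted p under 0.05, and 186 (1.95%) and 0 members with the batch block.

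**Figure D2:**
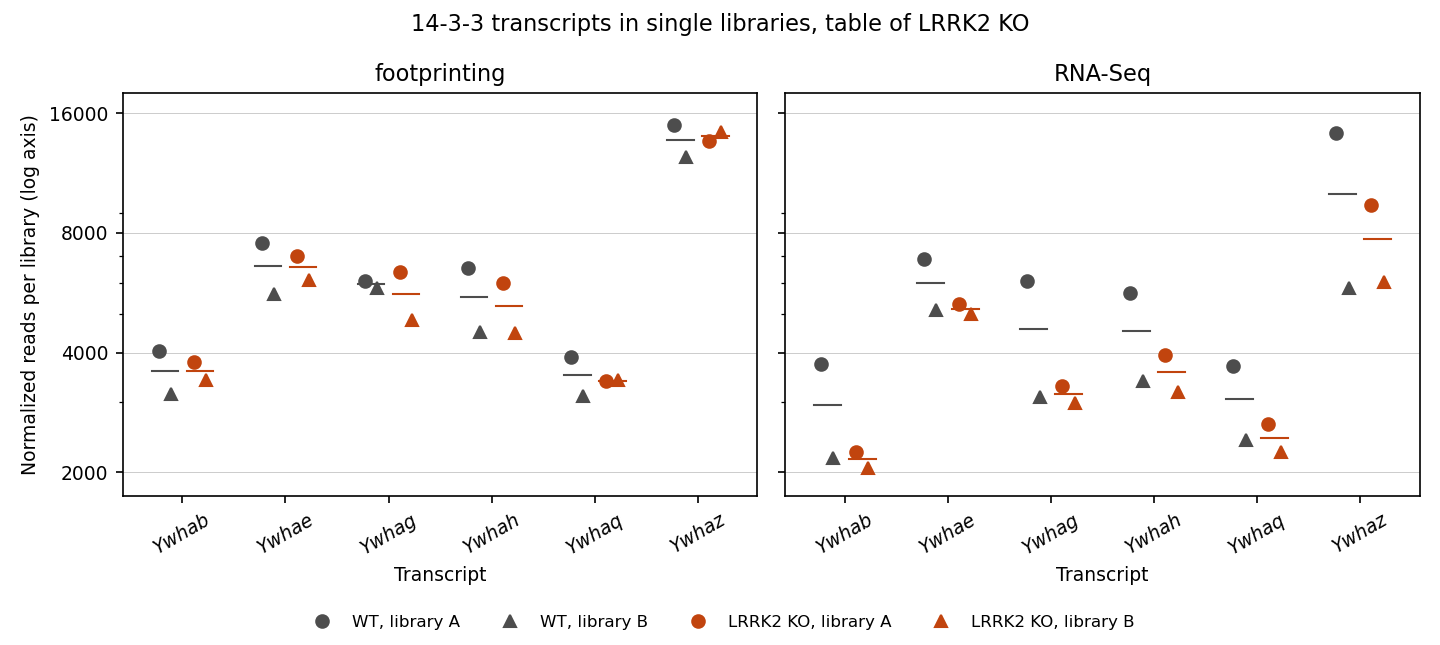
Normalized reads of the 6 transcripts in single libraries of the LRRK2 KO table (log axis), footprinting at left and RNA-Seq at right; circles are A and triangles B libraries, WT in grey and LRRK2 KO in orange, and short lines are group means. In RNA-Seq, WT library A is the highest library for all 6 transcripts (6067 for *Ywhag*), while WT library B (3094 for *Ywhag*) lies with the LRRK2 KO libraries.

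GS LRRK2 TG against non-TG control asks what a hyperactive LRRK2 does to translation. The 14-3-3 transcripts had slightly higher TE in the transgenic mean, with a median TE difference of 0.14 beside 0.02 over all transcripts, a median footprinting change of 0.04 beside 0.00 and a median RNA-Seq change of -0.05 beside -0.02. As single transgenic libraries were left out, these medians ran from 0.08 to 0.18 for TE, from -0.004 to 0.07 for footprinting and from -0.125 to -0.119 for RNA-Seq. With each column scaled by its median, that of TE was 0.08 and that of RNA-Seq 0.002, beside -0.04 and 0.03 over all transcripts. The TE difference was above 0 for 5 of the 6, and for 4 of the 6 when each column was scaled by its median. One member, *Ywhab*, had a TE difference of 0.25 or more, where 17% of all transcripts had, and 0 members had -0.25 or less (5.24%). In footprinting 0 members reached 0.25 (3.32%) or -0.25 (3.21%), and in RNA-Seq 0 reached 0.25 (4.02%) or -0.25 (15%). These are differences of group means without a test, because the control libraries were not recovered.

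*Ywhab* had a footprinting mean of 9780 in control and 10265 in GS LRRK2 TG, where its libraries held 11109 and 9421. Its RNA-Seq mean was 3133 in control and 2730.5 in GS LRRK2 TG, with 3222 and 2239 in the libraries. The control mean thus lay between the transgenic libraries in both assays. The log2 changes of *Ywhab* were 0.07 in footprinting and -0.20 in RNA-Seq, for a TE difference of 0.27, which ran from 0.03 to 0.55 as single transgenic libraries were left out.

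*Ywhaz* followed with a TE difference of 0.19, from a footprinting mean of 40876 in control and transgenic libraries of 40372 and 41526, and an RNA-Seq mean of 15564 in control and libraries of 12192 and 15176. Here both transgenic RNA-Seq libraries lay below the control mean. *Ywhae* had a TE difference of 0.17, with a footprinting mean of 16478 in control against 16162 and 17941 in the transgenic libraries, and an RNA-Seq mean of 8124 against 7910.0 and 7067. *Ywhaq* had the highest footprinting change, 0.13, with a control mean of 9681 and transgenic libraries of 10253 and 10916, both above it. Its RNA-Seq libraries, at 4257 and 8807 beside a control mean of 6456, differed from each other by more than any member did between group means. Over all transcripts, the robust SD of the log2 ratio between the transgenic libraries was 1.75 in RNA-Seq and 0.32 in footprinting. The TE difference of *Ywhaq* was 0.11, with a range of -0.32 to 0.73 over left-out transgenic libraries. That range was 0.04 to 0.35 for *Ywhaz* and 0.09 to 0.25 for *Ywhae*. *Ywhag* had a footprinting mean of 12450.5 in control and transgenic libraries of 10495 and 14863, and an RNA-Seq mean of 5408 in control and libraries of 7036 and 3879.5. *Ywhah* had a footprinting mean of 9029 in control and libraries of 9095 and 9084, and an RNA-Seq mean of 7846 in control and libraries of 6777 and 9602. The control mean lay between the transgenic libraries for *Ywhag* in both assays and for *Ywhah* in RNA-Seq. The TE difference was 0.01 for *Ywhag* and -0.05 for *Ywhah*, but ran from -0.35 to 0.51 and from -0.28 to 0.22 as single transgenic libraries were left out, and that of *Ywhag* turned to -0.04 under column-median scaling.

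Of the markers of other cells, *Ttr* lay below the control mean in both transgenic libraries and both assays. *Ttr*, the only listed choroid plexus marker of 3, had a footprinting mean of 3944 in control and transgenic libraries of 1037 and 408. Its RNA-Seq mean was 4451 in control, beside transgenic libraries of 421 and 1982. A control mean of *Ttr* can rest mostly on 1 library. In the non-TG control beside GS/DA LRRK2 TG, single libraries held 17057 and 1193 in footprinting and 13982 and 1811 in RNA-Seq. The summed cortical markers (3 of 4 listed, led by *Slc17a7*) had a footprinting mean of 1612 in control and libraries of 2302 and 431, and an RNA-Seq mean of 1851 in control and libraries of 732 and 1410.3. The median TE difference was 0.31 over the 5 listed astrocyte markers of 5, led by *Slc1a3*, and -0.49 over the 3 listed blood genes of 4, led by *Hba-a2*. The summed RNA-Seq control mean of the astrocyte markers (4534) lay between the transgenic libraries (5203 and 3569.6), as did that of the blood genes (25253, between 49017 and 9721). The cortical footprinting mean of control lay between the transgenic libraries too. Their part in the TE differences of the members was not tested.

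GS/DA LRRK2 TG against non-TG control pairs the same mutation with a dead kinase, and the labels list a single set of non-TG samples for both transgenic tables. Which of them entered each control mean is not known, so both comparisons are set side by side without a test between them. *Ywhag* and *Ywhah*, the pair most alike in sequence, had the highest footprinting changes of the members, 0.23 and 0.18, at the 95.5 and 92.5 percentiles of all transcripts. As single libraries were left out, these changes ran from 0.11 to 0.36 and from 0.14 to 0.22, ranges that overlap. *Ywhaz* had the lowest, -0.09. The median over the 6 was 0.04 (-0.01 over all transcripts) for footprinting, 0.02 (0.06) for RNA-Seq and 0.04 (-0.05) for TE, and 0 members reached 0.25 in either direction in any of these measures (of all transcripts 3.67% at 0.25 or more and 3.35% at -0.25 or less in footprinting, 14.2% and 2.59% in RNA-Seq, and 1.48% and 13.2% in TE). The median RNA-Seq change was -0.06 under column-median scaling, beside -0.02 over all transcripts. The TE difference was then above 0 for 6 members in place of 4, while its median over all transcripts was 0.03 in place of -0.05.

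*Ywhah* had footprinting values of 10334 and 10904 in control libraries A and B and of 11717 and 12401 in both libraries of GS/DA LRRK2 TG. Both group means were also fitted by a further pair of reads, set aside because its ratio lay more than 3 robust SDs from the usual one. At this level the fit of a pair was by itself no check in the transgenic column. With the pairs kept, both transgenic libraries were above both control libraries, as were those of 12.1% of all transcripts, and the change was 0.18 between the A libraries and 0.19 between the B libraries. In limma without a block it was 0.18 ± 0.11 (SE, n = 2 libraries a group) with a Benjamini-Hochberg adjusted p of 1.00. With the library batch as a block, limma gave *Ywhah* an unadjusted p of 0.0352 and an adjusted p of 0.319. The batches were matched by these same values, which can lower p. With the batches crossed (letters of the transgenic libraries swapped), its unadjusted p in limma was 0.424.

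*Ywhag* had footprinting values of 15509.5 and 13068 in control and of 18025 and 15451 in GS/DA LRRK2 TG. The transgenic library was higher within each batch, by 0.22 and 0.24, but the groups overlapped. The transgenic mean of *Ywhag* also fitted a second pair of reads, 13464 and 20012, less close to the usual ratio of these libraries, with which the batches would differ by -0.20 and 0.61. Without a block, limma gave *Ywhag* a change of 0.23 ± 0.15 (SE, unadjusted p 0.174) with the first pair and 0.21 ± 0.22 (unadjusted p 0.379) with the second. With the batch block, fitted with the first pair only, limma gave an unadjusted p of 0.0147 and a Benjamini-Hochberg adjusted p of 0.247. With the batches crossed, the unadjusted p of *Ywhag* in limma was 0.326.

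*Ywhaz* had footprinting values of 54882 and 51363 in control and 50460.0 and 49398 in GS/DA LRRK2 TG. Both transgenic libraries lay below both control libraries, as in 12.3% of all transcripts, and did so too with the second pair of reads that fitted the control mean, 51076 and 55169, which lay nearly as close to the usual ratio. limma gave -0.09 ± 0.11 (SE) for *Ywhaz*. The other members overlapped, *Ywhab* with 11900 and 13033 in control and 11653.5 and 13184 in GS/DA LRRK2 TG, *Ywhaq* with 12309 and 11762 against 12339 and 12222, and *Ywhae* with 21032 and 19095.5 against 22097 and 19312. The control mean of *Ywhae* had a second pair as well, 17226 and 22902, with which the groups overlapped too.

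For footprinting without a block, limma called 0 of the 6 members and 0 of 8569 transcripts (0%), with 161 of all transcripts (1.88%) and 0 members at an unadjusted p under 0.05. With the block, 23 transcripts (0.268%) and 0 members were called. There 1212 transcripts (14.1%) and 2 members, *Ywhag* and *Ywhah*, had an unadjusted p under 0.05. With the batches crossed, 74 transcripts (0.864%) and 0 members had. For RNA-Seq and TE without a block, limma called 0 members and 0 transcripts (0%), and 0 had an unadjusted p under 0.05, while with the block 130 transcripts (1.52%) in RNA-Seq and 33 (0.385%) in TE had, 0 of them members.

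RNA-Seq of all members but *Ywhaz* differed more between the control libraries than between the group means of GS/DA LRRK2 TG and control. This was not particular to the members. Over all transcripts, the robust SD of the log2 ratio between libraries was 1.46 in control RNA-Seq and 1.75 in that of GS/DA LRRK2 TG. In footprinting it was 0.24 and 0.26. *Ywhag* had RNA-Seq values of 6644 and 3478 in control and 7691.5 and 4194 in GS/DA LRRK2 TG. *Ywhaq* had the opposite order of libraries, 5786 and 10060.1 in control and 5324 and 9633 in GS/DA LRRK2 TG. *Ywhah* had 7311 and 9760.1 in control and 8037.5 and 10406 in GS/DA LRRK2 TG. The log2 ratio of library A to library B was 0.93 for *Ywhag*, 0.73 for *Ywhab*, 0.17 for *Ywhae*, -0.02 for *Ywhaz*, -0.42 for *Ywhah* and -0.80 for *Ywhaq* in control, so the order of the members by mRNA depended on the library. The groups overlapped in RNA-Seq for all 6 members, where 1.77% of all transcripts had both transgenic libraries higher and 1.6% both lower. The transgenic RNA-Seq mean of *Ywhaz*, with 15671 and 18476 in the libraries beside 18063 and 18318 in control, also fitted a pair of 32131 and 2016, less close to the usual ratio, with which the groups overlapped as well.

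Cortical markers separated the groups in this comparison. Of 4 symbols 3 were listed, with *Slc17a7* the most abundant. Their summed footprinting values were 1056 and 1630 in control and 2574 and 4104 in GS/DA LRRK2 TG, and their summed RNA-Seq values 1965 and 915 against 4030.5 and 2408. The 12 listed striatal markers, led by *Ppp1r1b*, summed to 177517 and 156144 in control footprinting and to 151612 and 121456 in GS/DA LRRK2 TG. *Ttr* had footprinting values of 17057 and 1193 in control and 1137 and 5162 in GS/DA LRRK2 TG, and RNA-Seq values of 13982 and 1811 against 1137 and 7469, so that control library A was highest and the order of the groups differed between the batches. The part of these markers in the footprinting values of *Ywhag*, *Ywhah* and *Ywhaz* was not tested.

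**Figure D3:**
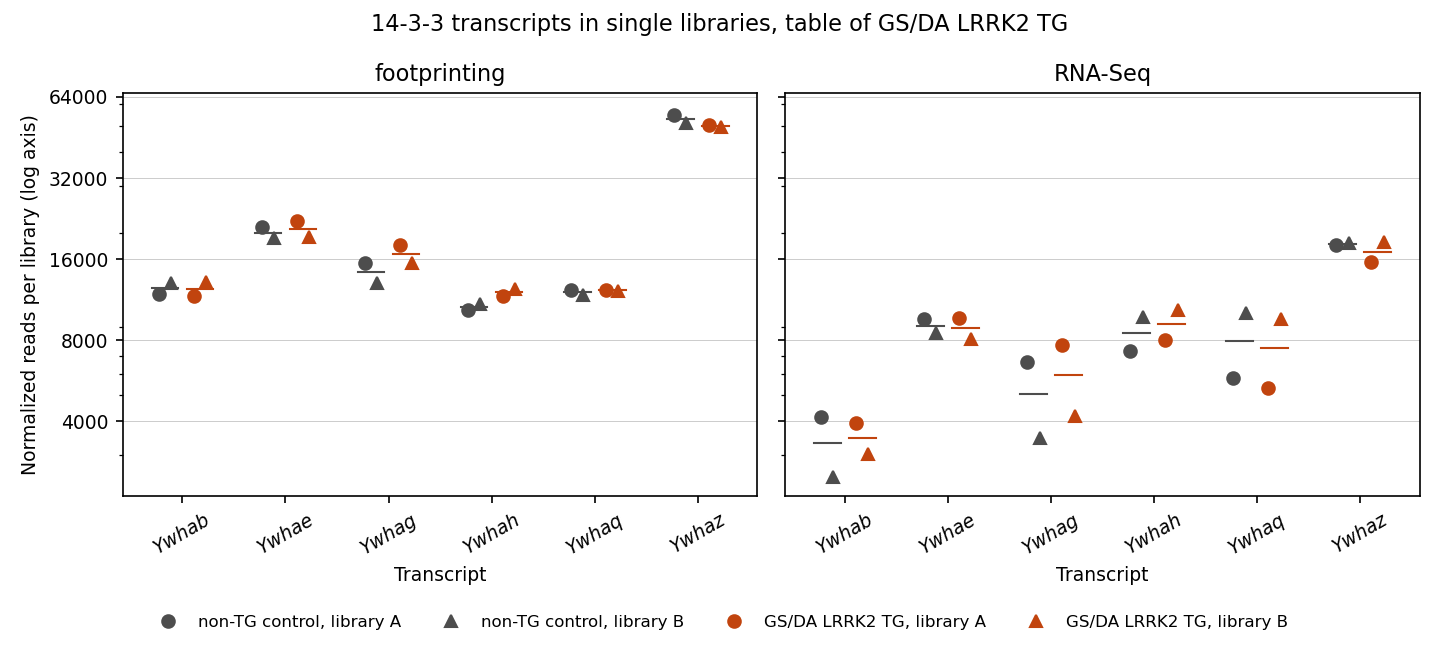
Normalized reads of the 6 transcripts in each recovered library for GS/DA LRRK2 TG and its control (log axis), footprinting at left and RNA-Seq at right; circles are A and triangles B libraries, non-TG control in grey and GS/DA LRRK2 TG in orange, and short lines are group means. In footprinting both *Ywhah* libraries of GS/DA LRRK2 TG (11717 and 12401) lie above both control libraries (10334 and 10904); in RNA-Seq the libraries of a group lie apart for *Ywhag* (6644 and 3478 in control) but not for *Ywhaz* (18063 and 18318).

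Side by side, the footprinting changes of *Ywhag* were 0.03 in GS LRRK2 TG, 0.23 in GS/DA LRRK2 TG and -0.08 in LRRK2 KO, and those of *Ywhah* 0.01, 0.18 and -0.08. The TE differences of *Ywhab* were 0.27, -0.07 and 0.46, the second of which turned to 0.01 under column-median scaling. Those of *Ywhaq* were 0.11, 0.11 and 0.28. Over left-out libraries, that of *Ywhab* ran from -0.49 to 0.25 in GS/DA LRRK2 TG and from 0.02 to 0.80 in LRRK2 KO. That of *Ywhaq* ran from -0.34 to 0.60 and from -0.07 to 0.55. The SD of the footprinting changes over all transcripts was 0.15, 0.16 and 0.20, and that of the TE differences 0.22, 0.17 and 0.27.

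**Figure D4:**
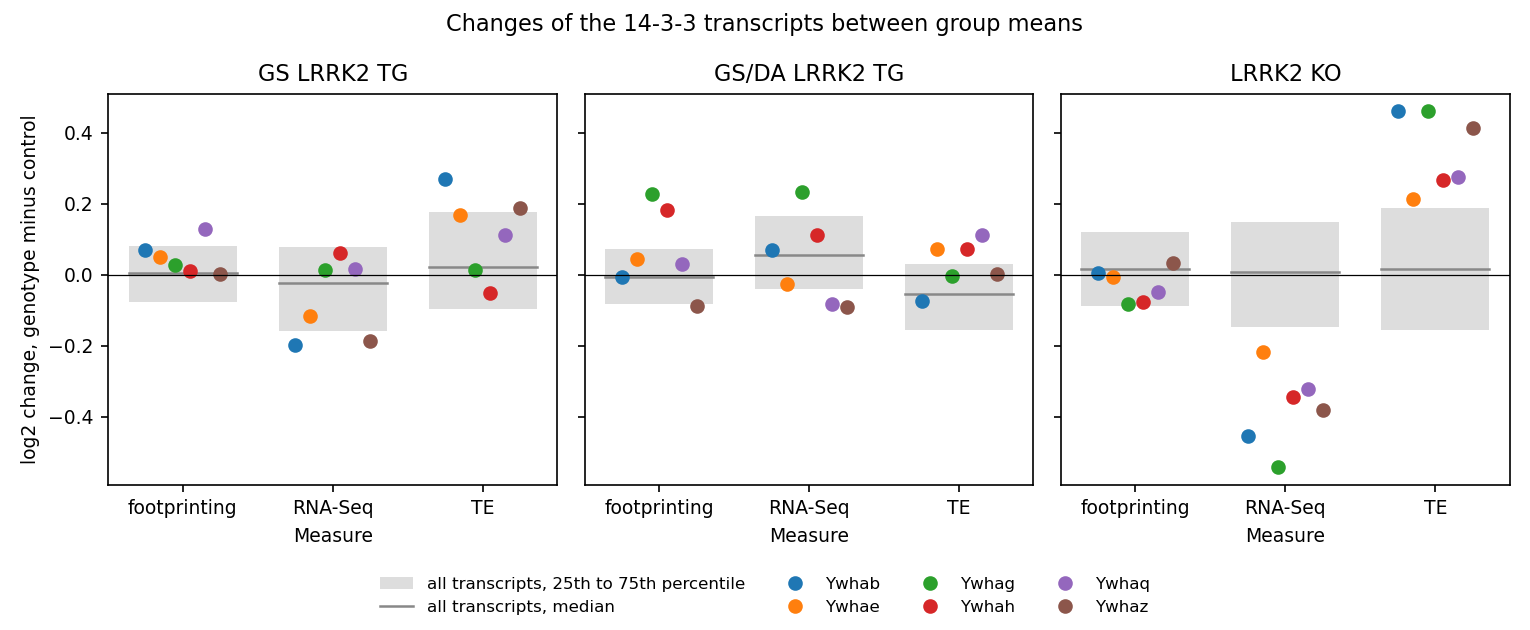
Log2 change between group means (genotype minus control) of each of the 6 transcripts in footprinting, RNA-Seq and TE, 1 panel per comparison; the grey line is the median and the grey box the range from the 25th to the 75th percentile of all transcripts. In LRRK2 KO all 6 RNA-Seq changes lie below that box (-0.54 to -0.22) and all 6 TE differences above it (0.21 to 0.46), values that rest on 1 WT library.

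The enzymes that set or remove the phosphates read by 14-3-3 on LRRK2 were followed as a list of 9, all of them listed in each table, with the catalytic subunits of PKA and PP1, casein kinase and IkB-type kinases. limma called 0 of the 9 in GS/DA LRRK2 TG and 0 of the 9 in LRRK2 KO in footprinting, RNA-Seq and TE, as it called 0% of all transcripts in each of these fits. Their median TE difference was 0.14 in GS LRRK2 TG, -0.08 in GS/DA LRRK2 TG and 0.04 in LRRK2 KO. *Chuk*, an IkB kinase, had the highest TE difference of the list in GS LRRK2 TG, 0.43, and the lowest in GS/DA LRRK2 TG, -0.34. In LRRK2 KO the PKA subunit *Prkacb* was highest with 0.30 and the phosphatase *Ppp1ca* lowest with -0.24.

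Known 14-3-3 clients were listed for 20 of 28 symbols in the transgenic tables and 22 of 28 in the LRRK2 KO table, and limma called 0 of the 20 and 0 of the 22 in each measure, beside 0% of all transcripts. Their median TE difference was 0.02 in GS LRRK2 TG, -0.02 in GS/DA LRRK2 TG and -0.07 in LRRK2 KO. *Foxo3*, a transcription factor that 14-3-3 keeps out of the nucleus, had a TE difference of 0.36 in GS LRRK2 TG. The kinase *Braf* had -0.33 in GS/DA LRRK2 TG and 0.28 in LRRK2 KO. *Hdac5*, a histone deacetylase also held in the cytoplasm by 14-3-3, was among the 2 lowest of the list in each comparison, with -0.25, -0.17 and -0.31, and the apoptosis protein *Bad* was lowest in LRRK2 KO with -0.42.

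Of 12 other LRRK2 partners 7 were listed, and limma called 0 of the 7 in each measure of GS/DA LRRK2 TG and LRRK2 KO, again beside 0% of all transcripts. The chaperone *Hsp90aa1* had TE differences of 0.24 in GS LRRK2 TG, -0.64 in GS/DA LRRK2 TG and 0.51 in LRRK2 KO. Its footprinting changes were 0.06, 0.07 and 0.06, so its TE differences went with RNA-Seq changes of -0.18, 0.71 and -0.45. *Stub1*, a ubiquitin ligase that acts on LRRK2, had -0.25, 0.05 and -0.38.

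Likeness of pattern was taken over the 12 group means (log2, each column less its median), columns that share assays, tables and controls. Between members, Pearson's r was highest for *Ywhab* and *Ywhae* (0.995) and lowest for *Ywhah* and *Ywhaz* (0.778), the latter close to the median r of *Ywhaz* to other transcripts (0.778). Among the 1675 transcripts that reach a mean of 500 in every column, the pattern most like that of *Ywhab* was that of *Ankrd46* (0.998), then *Rab14* (0.997), and for *Ywhae* those of *Rraga* (0.997) and *Cog7* (0.997). For *Ywhag* they were *Mapt*, encoding tau (0.998), and the synaptic vesicle gene *Syn2* (0.997), and for *Ywhah* *Ap3b2* (0.989) and *Ipo5* (0.988). For *Ywhaq* they were *Dstn* (0.996) and *Paics* (0.995), and *Gad1*, whose product makes GABA, was among those most like *Ywhaz* (0.999). The median r over the 1675 transcripts was 0.67 for *Ywhah* and between 0.76 and 0.78 for the other members.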

How the data were processed

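The authors aligned reads to mm9 with TopHat2 2.0.11 and Bowtie2 2.2.2 after CASAVA 1.8 (versions from the submitters' processing notes), allowing at most 1 mismatch, summed CDS reads across all isoforms of a gene, left out weakly covered transcripts and normalized with DESeq 1.20. What the authors deposited per group is a mean signal with no SD. The authors deposited folding energies of the 5′UTR in kcal/mol. The deposited TE, TE difference and *z* score columns, log2 values and a score, hold the authors' own comparison and were not used.

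TE and changes were computed as log2 ratios of the deposited means without a pseudocount. Reads of single libraries were recovered as the pair of whole numbers of 2 step sizes that makes up a mean given to 10 digits. This resolved 99.7% to 99.9% of transcripts in each of 10 columns. After the values had been shifted by a constant it resolved 0% of those with a mean under 10000 and, by column, 7.1% to 100% of those with a mean of 10000 or more, where pairs fit by accident and the fit alone is no check. Where more than 1 pair was left within 3 robust SDs of the usual ratio between libraries, the nearest was used. In RNA-Seq of the transgenic tables this SD was 1.46 to 1.75 (log2), so the limit was wide there. limma 3.58.1 (R 4.3.3) was fitted to log2(normalized reads + 10) of both groups of a table, footprinting and RNA-Seq each alone and TE as the interaction of genotype and assay, with two-sided p-values adjusted by the Benjamini-Hochberg method over all transcripts. No fit was made for GS LRRK2 TG, since single control libraries are unknown there. The recovery and the fit were tested on simulated data. With 2 libraries a group, precision is limited, and nothing here separates a small change from none.

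Members and lists were chosen by symbol with earlier results of these data known. Genes named are the 6 members, *Lrrk2*, the most abundant of each marker list printed, the 2 highest and 2 lowest TE differences of each list in a comparison and the 2 transcripts most correlated with each member (a selection of these is printed). Gene positions, CDS lengths and sequences came from the NCBIM37 (mm9) assembly and its annotation with python 3.11.15 (numpy 2.4.6, pandas 2.3.3, scipy 1.17.1, numba 0.67.0, matplotlib 3.10.9), and coding sequences were aligned with mafft 7.526. Every 28-base word of each CDS was searched in the genome on both strands. Crossing the library batches and the second pair of reads were alternatives chosen after the data were seen. The other alternatives were column-median and column-sum scaling, a pseudocount of 10 for the means or 1 for limma, log2 means of libraries, a minimum of 2 times the authors' read minimum, library batch as a block, median scaling of libraries, leaving out each library, and the CDS of the longest isoform.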

Additional observations from a re-analysis of the deposited data

How the results depend on the processing

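limma called 0 of the 6 members in every fit run, in each measure of GS/DA LRRK2 TG and LRRK2 KO. The median footprinting change of the members in GS/DA LRRK2 TG ran from 0.0291 to 0.0895 as single libraries were left out, the highest without control library A, and the cause was not tested. The other medians moved by less than the spread between libraries, which was wide for LRRK2 KO RNA-Seq (-0.73 to 0.02 over left-out libraries) and TE (-0.09 to 0.69). Of 438 recomputed changes of single members 423 moved by less than that spread and 15 by more, 13 of them on leaving out a library. Of 72 levels per kb, 25 moved with the longest isoform. Counts of all transcripts called by limma differed from 0 in footprinting of GS/DA LRRK2 TG (23 with the batch block, 6 with batches crossed, 2 to 33 on leaving out a library) and, with the block, in LRRK2 KO footprinting (14) and RNA-Seq (11). No paired analysis was possible because the deposited columns are group means and carry no replicate numbers, paired here meaning by replicate number. The fits with the batch block did pair libraries, but on a matching read from their values. That matching was chosen so that libraries of a batch differ alike, which can lower the p-values of these limma fits. The replicate numbers of the labels were not assigned to the recovered libraries. A fit with a block of replicate numbers and, for GS LRRK2 TG, log2 means of libraries and leaving out control libraries were not run. Where a group was left with 1 library, limma assumed that it varies like the others.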
